A study of Rattus norvegicus with 16 samples.

Results

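Gene expression in rat neural stem and progenitor cells was compared between cultures given platelet-derived growth factor AA (PDGF-AA) and cultures given no growth factor, both for 6 d. The comparison took the 4 arrays whose labels name PDGF-AA for 6 d and the 4 whose labels name untreated cells at 6 d, which are 8 of the 16 arrays of the series. The other 8 arrays hold the same pair of treatments at 12 h. All cells came from the neocortex of Sprague-Dawley embryos at embryonic day 14.5 and had been expanded on plastic coated with poly-L-ornithine and fibronectin, in N2 medium that held the mitogen FGF-2, fibroblast growth factor 2, at 10 ng/ml. PDGF-AA was given every day at 10 ng/ml. The design text names FGF-2, no growth factor and PDGF as alternative conditions, so FGF-2 was taken as absent from both 6 d groups. On every array the sample RNA was hybridised together with reference RNA from cells kept in FGF-2, and each group had 2 arrays in each order of the dyes. The cultures are mixed populations, so a smaller number of cells of one type and less RNA per cell cannot be told apart in any value given here.

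PDGF-AA is a dimer of A chains that binds the receptor encoded by Pdgfra, a tyrosine kinase that signals through the phosphoinositide 3-kinase and ERK pathways. In the developing brain it is best known as a mitogen and survival factor for oligodendrocyte progenitors. Withdrawal of FGF-2 lets neocortical precursors leave the cell cycle and turn into neurons and glia, so the comparison asks how cells that go through this period with PDGF-AA differ from cells that go through it without any added factor.

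Values are log2 ratios of sample over the FGF-2 reference, centred on the median of each array, and are given in the order of replicates 1 to 4. A difference is the mean with PDGF-AA minus the mean without factor, with the standard error from limma after a term for the dye. The base of the deposited log ratios is not stated and was taken as 2, nor is the direction. It was read as sample over reference, because replication genes then lie below 0 on most of the 6 d arrays, after the mitogen is withdrawn. The other reading would turn every sign. A p-value here measures the spread between hybridisations, since the labels give at least 2 RNA batches for a time point without saying which arrays share one. The chip carries mouse cDNA, so rat RNA was read across species and gene symbols are those of the mouse annotation. Of the 12559 units tested, 6241 were genes with exactly 1 symbol.

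The arrays of one group were not closely alike. Across all units the median correlation between pairs of arrays was 0.162 within the PDGF-AA group, 0.374 within the no factor group and 0.238 between the groups. With the dye effect removed these medians were 0.203, 0.545 and 0.271. With the dye effect removed, every PDGF-AA array correlated better on average with no factor replicates 1 to 3 than with the other arrays among PDGF-AA replicates 1 to 3. The values were 0.183 against 0.120 for replicate 1, 0.290 against 0.203 for replicate 2, 0.245 against 0.081 for replicate 3 and 0.467 against 0.265 for replicate 4. No factor replicate 4 correlated at 0.434 with no factor replicates 1 to 3 and at 0.283 with PDGF-AA replicates 1 to 3, but for several genes named here it lay among the PDGF-AA arrays. The array titles also hold a code number, whose meaning is not stated. PDGF-AA replicate 4 shared its code number with no factor replicates 2 to 4, while PDGF-AA replicates 1 to 3 and no factor replicate 1 had other numbers that did not occur in the opposite group. The part of the code number in the differences was not tested beyond the alternatives given with the lists and in the closing section. Results are therefore given with all 8 arrays and again without both arrays numbered 4. That pair was picked with its values in view, so the second set of values is a description.

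With all 8 arrays, 1 unit passed an adjusted p of 0.05 (limma, Benjamini-Hochberg), which is 0.00796% of the units tested. It was lower with PDGF-AA. No unit was higher at that threshold (0 of 12559), while 433 (3.45%) were higher and 667 (5.31%) lower at an unadjusted p under 0.05, together 1100 units or 8.76%. All 4 arrays of PDGF-AA lay above all 4 of no factor for 165 units (1.31%) and below them for 169 (1.35%). The gene lists further on hold only genes with 1 symbol, while the shares beside them are of all units. Of the 6241 genes with 1 symbol, 207 were higher and 421 lower at that unadjusted p. For 75 of them the PDGF-AA arrays lay above and for 101 below, and their median difference was -0.014. The median difference over all units was 0.000675 and the median standard error 0.17, so that an interval of 95% reached 0.36 to either side for a typical unit.

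The gene that passed was Entpd2, which encodes an ecto-enzyme of the cell surface that breaks down extracellular ATP and is known as a marker of astrocyte-like progenitors and certain glia. It read 0.45, 0.55, 0.79 and 1.10 with PDGF-AA and 2.34, 2.35, 2.28 and 1.71 without factor. Every array of both groups lay above the FGF-2 reference, and the groups did not overlap. Entpd2 fell by 1.45 ± 0.17 with PDGF-AA against no factor (95% interval -1.80 to -1.09; adjusted p = 0.00203, limma with Benjamini-Hochberg), and cultures without factor held 2.73 times the level of cultures with PDGF-AA. The difference was -1.52 on the Cy5 arrays and -1.38 on the Cy3 arrays. Without both arrays numbered 4, a pair picked with its values in view, it was -1.54 ± 0.20. When the fit used only the 8 arrays at 6 d, whose spread is estimated with fewer arrays, the lowest adjusted p was 0.0697 and the call was lost. It was also lost in limma with quantile normalization (lowest adjusted p 0.168), without the dye term (0.341) and on the arrays of either dye alone.

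The 250 bases before the annotated start of rat Entpd2 are shown because it is the gene that carries the call. The sequence is from RefSeq on the GRCr8 build, read 5′ to 3′ toward the start, and none of the 3 motifs searched in it and in the promoters shown further on was found there.
Entpd2 (chr3:28611566-28611815, + strand): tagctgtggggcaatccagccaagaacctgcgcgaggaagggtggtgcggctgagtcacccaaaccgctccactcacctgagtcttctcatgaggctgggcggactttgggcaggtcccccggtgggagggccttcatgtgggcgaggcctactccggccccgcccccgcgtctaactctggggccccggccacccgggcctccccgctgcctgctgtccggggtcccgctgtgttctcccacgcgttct

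Among the other 9 genes with the smallest p on the lower side, none passed. Atrn, which encodes the transmembrane protein attractin, read 0.45, 0.40, 0.74 and 1.37 with PDGF-AA and 1.65, 1.71, 2.41 and 1.36 without factor, a difference of -1.04 ± 0.17 (adjusted p = 0.0785). Tiam2, an activator of the GTPase Rac, read -0.65, -0.10, 0.38 and 0.08 against 1.60, 0.95, 1.25 and 0.66, a difference of -1.19 ± 0.20 (adjusted p = 0.0789). The groups of Tiam2 did not overlap, while those of Atrn touched through the arrays numbered 4. Ptprs, a receptor tyrosine phosphatase that binds proteoglycans, showed the widest crossing: -1.10, -0.72, 0.18 and 1.14 with PDGF-AA against 0.62, 1.69, 1.58 and 0.02. Its difference was -1.11 ± 0.23 with all arrays and -1.57 ± 0.17 without both arrays numbered 4. Sptan1, a spectrin of the membrane skeleton, did not overlap, at 0.33, 0.22, 0.45 and 0.58 against 1.21, 1.22, 1.08 and 0.68 (difference -0.65 ± 0.13). Camta1, a calmodulin-binding transcription activator, at -0.69 ± 0.15, and Tmem131l, at -0.83 ± 0.18, were also without overlap. The remaining 3, Scarb2, Jun and Ctsa, are taken up with their groups.

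On the higher side the smallest p belonged to Mcm7, a subunit of the replicative helicase, which is described with the cell cycle genes together with Rrm2 and Ube2c. Pgk1, a glycolytic kinase that makes ATP, read 0.16, -0.02, -0.10 and -0.64 with PDGF-AA and -0.65, -1.06, -0.83 and -0.38 without factor, a difference of 0.58 ± 0.15. Pgam1, the mutase that acts on the product of Pgk1, read 0.08, -0.01, 0.24 and -0.13 against -0.64, -0.62, -0.47 and -0.23, a difference of 0.53 ± 0.15. PDGF-AA replicate 4 crossed into the other group for Pgk1 and not for Pgam1. Ahcy, which clears S-adenosylhomocysteine after methylation reactions, read -0.24, -0.30, 0.05 and -0.18 against -0.84, -0.67, -0.65 and -0.56. Ddah1, which breaks down the methylarginine inhibitors of nitric oxide synthesis, read -0.35, -0.19, -0.65 and -0.47 against -1.12, -0.96, -1.26 and -0.77. Both were free of overlap, with differences of 0.51 ± 0.15 and 0.61 ± 0.18, as was the nuclear import receptor gene Tnpo3 at 0.42 ± 0.11. Fkbp3, a nuclear prolyl isomerase, at 0.53 ± 0.13 and Iws1, a factor of transcript elongation, at 0.47 ± 0.13 overlapped. None of these genes passed, with adjusted p from 0.272 to 0.417 for the 10 genes.

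**Figure D1:**
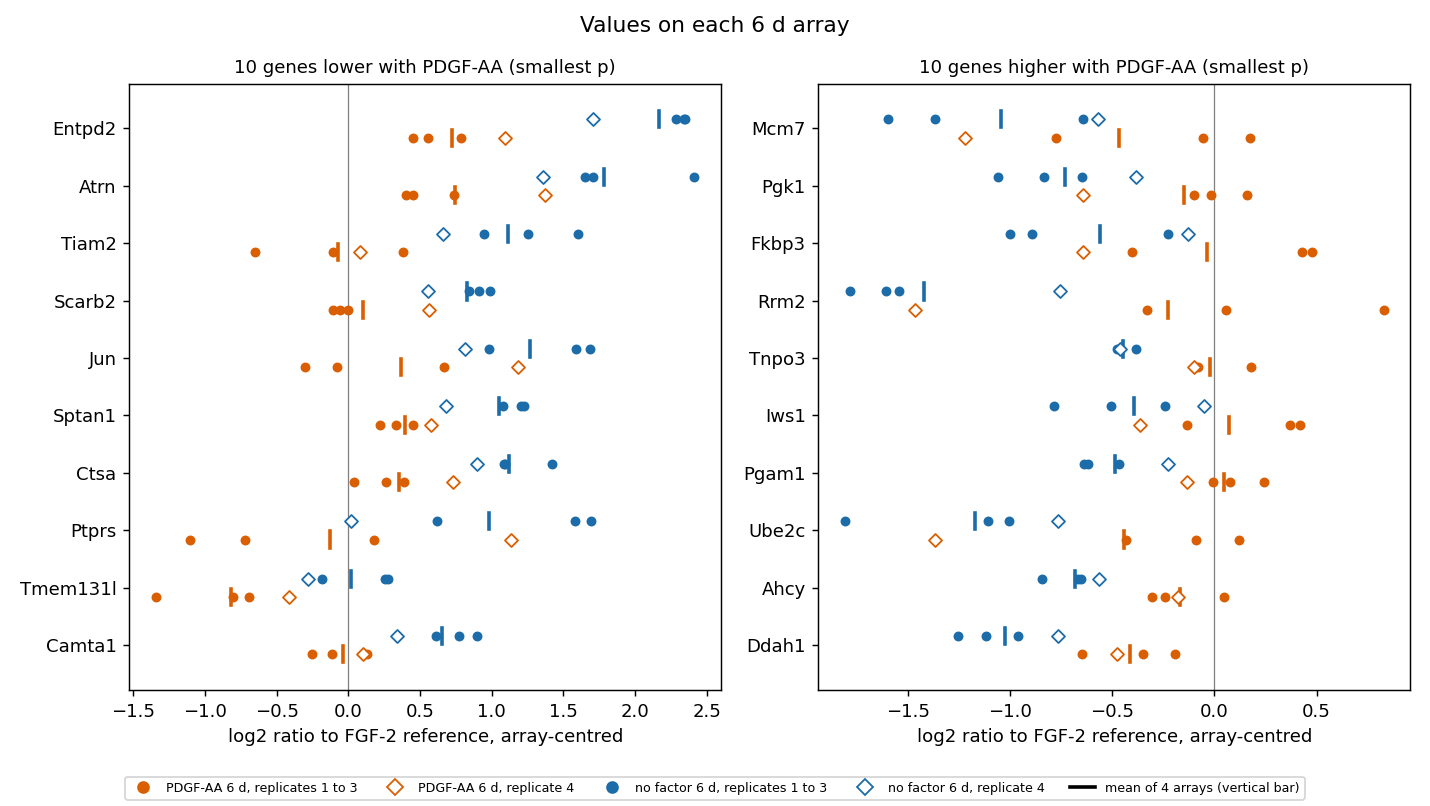
Log2 ratio to the FGF-2 reference on each 6 d array (horizontal axis) for the 10 genes of smallest p on the lower side and the 10 on the higher side, with PDGF-AA in orange and no factor in blue. Filled circles are replicates 1 to 3, open diamonds replicate 4 and vertical bars means of 4 arrays; the Entpd2 arrays separate at 1.10 and 1.71, and the diamonds of several genes lie on the side of the other group.

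Astrocyte genes as a group stood lower with PDGF-AA. Of 14 measured, 11 had a lower mean and 3 a higher one, 6 were lower at an unadjusted p under 0.05 against 5.31% of all units, 1 (Entpd2) passed, and the median difference was -0.43 against 0.000675 over all units. The median over the list was -0.12, 0.33, 0.22 and 0.76 with PDGF-AA and 0.97, 0.65, 0.90 and 0.49 without factor, so that PDGF-AA replicate 4 alone lay within the range of the other group. Clu, which encodes the secreted chaperone clusterin, had the lowest difference of all units, -1.71 ± 0.51, and did not pass (adjusted p = 0.418). Its arrays read -0.16, 1.86, 2.03 and 2.34 with PDGF-AA and 4.11, 3.95, 3.08 and 1.74 without factor, where no factor replicate 4 lay below 3 of the PDGF-AA arrays. Gja1, which encodes the astrocyte gap junction protein connexin 43, read 0.77, 1.51, 0.97 and 1.55 against 2.47, 1.46, 1.93 and 1.70, a difference of -0.69 ± 0.23. The overlap in Gja1 came from no factor replicate 2.

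The metallothionein genes Mt2 and Mt1, which buffer zinc and copper and are abundant in astrocytes, had differences of -0.61 ± 0.17 and -0.55 ± 0.16. Mt2 was free of overlap, at -0.05, 0.53, 0.21 and 0.07 against 1.10, 0.59, 0.55 and 0.97. Their sequences are close, so a spot of one may also have read the other. Glul, glutamine synthetase, the enzyme by which astrocytes clear glutamate, had a difference of -0.71 ± 0.26 that leaned on 1 array: 0.32, 0.31, 1.71 and 0.52 without factor against -0.003, -0.91, 0.24 and 0.70. Aldoc, the brain aldolase, read -0.42, 0.19, 0.74 and 2.25 against 1.07, 0.97, 1.67 and -0.17, and its difference of -0.20 ± 0.33 mixes arrays numbered 4 that lie at the opposite ends of their groups. Cst3, the protease inhibitor cystatin C, lay far below the reference in both groups and its difference was 0.17 ± 0.30. Without both arrays numbered 4 the list median was -0.79, and 7 of 14 passed, all lower, against 1.38% of all units. Among them were Clu at -2.53 ± 0.49, Gja1 at -1.08 ± 0.22, Aldoc at -0.89 ± 0.21 and Mt1 at -0.74 ± 0.18. On the arrays of the commonest code number alone, which hold 1 PDGF-AA array at 6 d, the list median had the opposite sign, 0.31, and with a code number term it was -0.14. It was -0.29 without PDGF-AA replicate 1, -0.22 without PDGF-AA replicate 3, -0.66 without PDGF-AA replicate 4 and -0.28 without no factor replicate 1.

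Genes of the lysosome, the acidic compartment in which proteins, lipids and sugars are degraded, showed the same side. Of 27 measured, 25 had a lower mean with PDGF-AA, 13 were lower at an unadjusted p under 0.05 (5.31% of all units), 0 were higher, and 6 did not overlap with PDGF-AA below (1.35% of all units). None of the 27 passed with all arrays. The median difference of the list was -0.31, with list medians of -0.05, 0.05, 0.05 and 0.41 on the PDGF-AA arrays and 0.38, 0.53, 0.48 and 0.27 on the no factor arrays. The sign of the list median was negative in all 22 settings tried, from -0.51 without both arrays numbered 4 to -0.05 on arrays of the commonest code number alone. Several of the 22 could not move the median: no dye term, only the 6 d arrays, complete units, no minimum of arrays and robust empirical Bayes.

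Ctsl, the cysteine protease cathepsin L, was the most even of the lysosomal genes named here: 0.39, 0.54, 0.53 and 0.50 with PDGF-AA and 1.06, 0.92, 1.10 and 1.18 without factor, a difference of -0.57 ± 0.13 with no overlap. Ctsa, the serine carboxypeptidase that protects other lysosomal enzymes, read 0.04, 0.26, 0.39 and 0.73 against 1.09, 1.09, 1.42 and 0.89, a difference of -0.77 ± 0.16. Scarb2, the membrane protein that carries glucocerebrosidase to the lysosome, had a difference of -0.72 ± 0.14, with PDGF-AA replicate 4 at 0.56 level with no factor replicate 4 at 0.56. Psap, the precursor of the saposins that help to degrade sphingolipids, had the lowest difference of the list at -0.96 ± 0.23. It read -0.05, 0.72, 0.71 and 1.36 against 1.90, 1.61, 1.84 and 1.22. Gaa, the acid glucosidase that degrades glycogen, read -0.35, -0.13, 0.58 and 1.28 against 0.96, 1.62, 1.29 and 0.71, and Ctsd, the aspartic protease cathepsin D, read -0.42, -0.11, 0.26 and 0.91 against 0.86, 1.16, 1.10 and 0.52. For all 3 the overlap came from the arrays numbered 4, and their differences were -0.96, -0.81 and -0.75. Without that pair of arrays 9 of 27 passed, all lower (1.38% of all units), with Psap at -1.35 ± 0.21, Gaa at -1.09 ± 0.17, Ctsd at -1.09 ± 0.21, Ctsa at -0.97 ± 0.17 and Scarb2 at -0.94 ± 0.14. Ctsl, at -0.55 ± 0.15, did not pass then (adjusted p = 0.104).

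**Figure D2:**
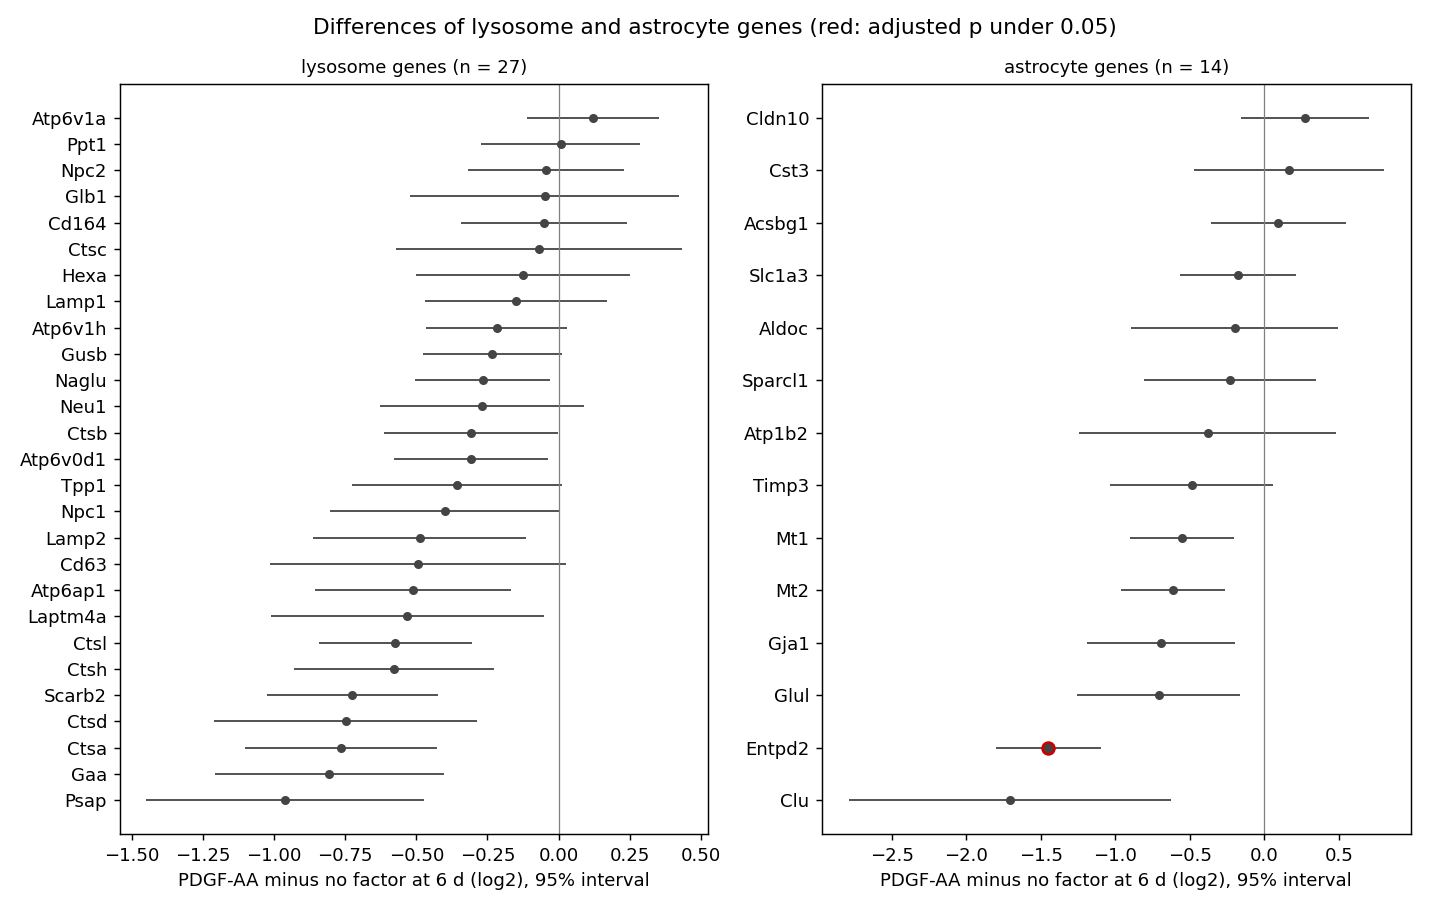
Difference between PDGF-AA and no factor at 6 d for each of 27 lysosome and 14 astrocyte genes, in log2 units with 95% intervals from limma, over 4 arrays a group. Only Entpd2 (red) passed an adjusted p of 0.05; 25 lysosome and 11 astrocyte genes lie to the left of 0, down to Psap at -0.96 and Clu at -1.71.

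Many lysosomal genes carry a short E-box motif near their start, and the promoters of Gaa and Ctsd are shown because both hold it and both genes lay apart once the arrays numbered 4 were set aside. The core TCACGTG, searched on both strands (CACGTGA on the other), occurs in the 250 bases before the start of 6 of 22 lysosome genes with a rat promoter of the same symbol (27.3%), of 10 of 71 cell cycle genes (14.1%) and of 825 of all 27457 promoters (3.0%). Capitals mark the matches, and the sequences are RefSeq GRCr8. In Gaa the match begins 67 bases before the start. The last match in Ctsd reads the motif on both strands at once, since matches on both strands overlap there.
Gaa (chr10:105028105-105028354, + strand): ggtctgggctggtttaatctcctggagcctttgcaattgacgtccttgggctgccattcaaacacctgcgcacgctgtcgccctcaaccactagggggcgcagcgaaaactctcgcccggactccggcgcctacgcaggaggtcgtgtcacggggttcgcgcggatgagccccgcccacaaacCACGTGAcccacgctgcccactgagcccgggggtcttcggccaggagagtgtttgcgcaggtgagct
Ctsd (chr1:206968822-206969071, - strand): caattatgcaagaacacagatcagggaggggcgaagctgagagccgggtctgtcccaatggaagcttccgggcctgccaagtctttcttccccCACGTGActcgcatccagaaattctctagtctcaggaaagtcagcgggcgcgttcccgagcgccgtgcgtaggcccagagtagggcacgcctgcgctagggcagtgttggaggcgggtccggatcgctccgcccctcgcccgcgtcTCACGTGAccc

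Cell cycle and DNA replication genes lay on the other side. Of 82 measured, 74 had a higher mean with PDGF-AA and 8 a lower one, 25 were higher at an unadjusted p under 0.05 against 3.45% of all units, and 1, Stmn1, was lower (5.31% of all units). None passed (0 of 82). The median difference was 0.40, and the list medians on the arrays were 0.19, -0.27, -0.23 and -0.77 with PDGF-AA and -0.72, -0.71, -0.86 and -0.35 without factor. PDGF-AA replicates 1 to 3 thus lay nearer to the FGF-2 reference than any no factor array, and PDGF-AA replicate 4 lay among the no factor arrays. Arrays of 2 of the 82 genes, Mcm5 and Racgap1, did not overlap, with PDGF-AA above (1.31% of all units). The direction of the ratios was itself read from the position of these genes below 0, which holds for the list median on 7 of the 8 arrays and not on PDGF-AA replicate 1.

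Rrm2, the small subunit of ribonucleotide reductase, which makes deoxynucleotides, had the highest difference among these genes, 1.19 ± 0.31 (adjusted p = 0.395). It read 0.83, 0.06, -0.33 and -1.46 with PDGF-AA and -1.60, -1.54, -1.78 and -0.76 without factor. Mcm6, like Mcm7 and Mcm5 a subunit of the helicase that opens replication origins, read 0.74, -0.18, -0.16 and -1.78 against -1.33, -1.30, -1.76 and -0.60, a difference of 0.91 ± 0.32. In both genes PDGF-AA replicate 4 lay with or below the low arrays of no factor, and no factor replicate 4 was the highest of its group. Mcm7 read 0.17, -0.06, -0.77 and -1.22 against -0.64, -1.37, -1.60 and -0.57, a difference of 0.58 ± 0.13 (adjusted p = 0.272). Mcm5, at -0.03, -0.09, 0.17 and -0.53 against -1.499, -0.75, -0.66 and -0.54, had a difference of 0.74 ± 0.31. Its groups were separated by only the gap between the arrays numbered 4. Ube2c, the ubiquitin-conjugating enzyme of the anaphase-promoting complex, had a difference of 0.73 ± 0.21, and Racgap1, a regulator of cytokinesis, one of 0.41 ± 0.17. Stmn1, which destabilises microtubules and is also abundant in young neurons, read 0.33, -0.13, -0.39 and -0.25 against 0.52, 0.42, 0.12 and 0.62, a difference of -0.53 ± 0.13. Without both arrays numbered 4, 11 of 82 passed, all higher, against 0.446% of all units, with Rrm2 at 1.75 ± 0.26, Mcm6 at 1.51 ± 0.23, Mcm5 at 1.30 ± 0.27 and Mcm7 at 0.72 ± 0.13. The list median with all arrays also leaned on single arrays and on the code number. It was 0.20 with 11 genes higher at an unadjusted p under 0.05 without PDGF-AA replicate 1, 0.54 with 48 without PDGF-AA replicate 4, 0.32 with 13 without no factor replicate 1, 0.28 with 9 when a term for the code number was fitted, and -0.13 with 0 on arrays of the commonest code number alone.

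**Figure D3:**
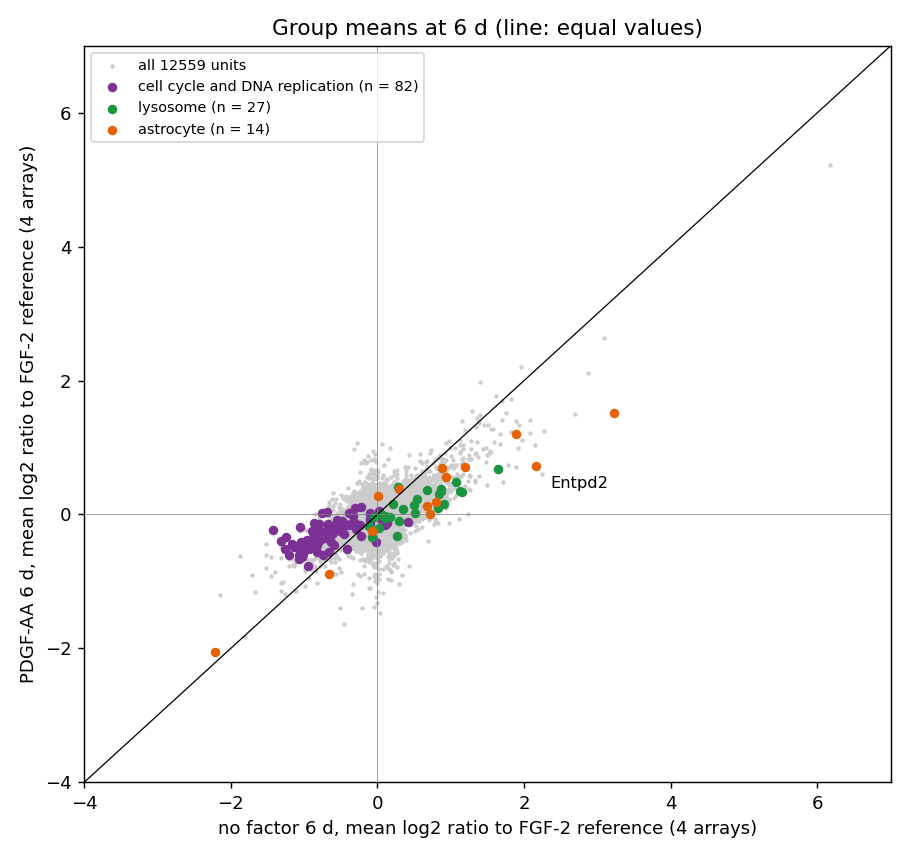
Mean log2 ratio to the FGF-2 reference at 6 d without factor (horizontal) and with PDGF-AA (vertical), each over 4 arrays, for all 12559 units, with the line of equal values. Of the coloured lists, 74 of 82 cell cycle genes lie above the line, most of them below 0 on both axes, and 25 of 27 lysosome and 11 of 14 astrocyte genes lie under it; Entpd2 is labelled.

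E2F factors drive many replication genes through GC-rich sites, and the promoters of Mcm6 and Mcm7 are shown because both genes were among those that passed without the arrays numbered 4 and each holds a match. The form TTTGGCGC (GCGCCAAA on the other strand) occurs in the 250 bases before the start of 5 of 71 cell cycle genes (7.04%), of 0 of 22 lysosome genes and of 117 of 27457 promoters (0.426%). The form TTTCCCGC (GCGGGAAA on the other strand) occurs in 3 of 71 (4.23%), 0 of 22 and 235 of 27457 (0.856%). Capitals mark the match, which begins 139 bases before the start in Mcm6 and 233 bases before it in Mcm7 (RefSeq GRCr8).
Mcm6 (chr13:42404353-42404602, - strand): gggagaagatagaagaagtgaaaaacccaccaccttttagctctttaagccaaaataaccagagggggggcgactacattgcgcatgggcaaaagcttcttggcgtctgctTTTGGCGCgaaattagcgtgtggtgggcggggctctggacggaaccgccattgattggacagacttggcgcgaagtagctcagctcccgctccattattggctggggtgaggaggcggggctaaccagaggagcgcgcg
Mcm7 (chr12:22163179-22163428, - strand): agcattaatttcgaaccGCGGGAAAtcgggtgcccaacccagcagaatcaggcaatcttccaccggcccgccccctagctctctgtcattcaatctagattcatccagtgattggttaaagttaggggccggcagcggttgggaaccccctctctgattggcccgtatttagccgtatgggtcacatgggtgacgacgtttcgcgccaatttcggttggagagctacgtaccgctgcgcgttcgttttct

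Of 14 cell cycle arrest genes, 9 had a lower mean with PDGF-AA and 5 a higher one. At an unadjusted p under 0.05, 2 were lower (5.31% of all units). The median difference was -0.23, and 0.11 on arrays of the commonest code number alone. With a code number term none of the 14 was lower at that p in limma. The same held without PDGF-AA replicate 1 or 3, or no factor replicate 1, 2 or 3. The number was 6 without PDGF-AA replicate 4 and 5 without no factor replicate 4. Cdkn1c, an inhibitor of cyclin-dependent kinases, covered the widest range: -0.34, 1.42, 2.69 and 4.68 with PDGF-AA and 2.81, 3.79, 4.15 and 0.71 without factor. Its difference of -0.76 ± 0.58 with all arrays was -1.99 ± 0.40 without the arrays numbered 4. Btg2, an antiproliferative gene that is also induced early by growth factors, showed 2 clusters of arrays that cut across the groups, with -0.99, -1.14, -0.96 and 0.63 against 0.31, 0.59, 0.23 and -1.01. Sat1, an enzyme of polyamine breakdown, had a difference of -0.94 ± 0.39, and Pink1, a mitochondrial kinase, one of -0.75 ± 0.38. Without the arrays numbered 4 these 3 genes stood at -1.35 ± 0.15, -1.75 ± 0.28 and -1.53 ± 0.26, and 5 of the 14 genes passed, all lower (1.38% of all units). For Cdkn1c, Btg2, Sat1 and Pink1 the arrays of the commonest code number alone gave positive differences.

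Neuronal genes lay lower with PDGF-AA in 8 of 9 cases, with 4 lower at an unadjusted p under 0.05 (5.31% of all units), none past the threshold and a median difference of -0.41. On arrays of the commonest code number alone the median was -0.01, with 0 of 9 lower at that p in limma. Mapt, which encodes the axonal protein tau, read -0.70, 0.19, 1.14 and 1.08 with PDGF-AA and 0.83, 1.80, 1.64 and 0.49 without factor, a difference of -0.76 ± 0.21. Tubb3, the neuronal beta-tubulin, read -0.39, -0.30, 0.20 and 0.33 against 0.26, 0.69, 0.49 and 0.37, a difference of -0.49 ± 0.14. Both overlapped. Celsr2, a cadherin of dendrite growth, had a difference of -0.71 ± 0.24. It was the member of the 9 that passed without the arrays numbered 4, at -1.19 ± 0.18 (1.38% of all units were lower then). On arrays of the commonest code number alone its difference was positive.

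Neural stem and progenitor genes showed no common side. Every value is a ratio to cells of the same origin, so the arrays do not give the absolute level of these markers. Of 13 measured, 8 were lower and 5 higher, 1 was lower at an unadjusted p under 0.05 (5.31% of all units), and the median difference of -0.20 lay between -0.02 and -0.07 without PDGF-AA replicate 1, 2 or 3 or no factor replicate 1 or 2. Nes, the intermediate filament gene of neural progenitors, read -1.60, -1.14, -0.48 and -0.11 with PDGF-AA and -1.27, -0.68, -0.28 and -1.32 without factor, a difference of 0.05 ± 0.17 with an interval that covers both signs. Vcan, a proteoglycan of progenitor matrix, had a difference of -0.75 ± 0.23. Ccnd2, the cyclin of cortical progenitors, had one of -0.25 ± 0.12. The Fgfr1 difference of 0.80 ± 0.47 came from 1 array, PDGF-AA replicate 3 at 2.56, while the other 7 arrays lay between -1.15 and -0.36.

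Of 6 oligodendrocyte progenitor genes 5 were lower, 1 of them, Vcan, at an unadjusted p under 0.05 (5.31% of all units), and the median difference was -0.43. This median was -0.24 without PDGF-AA replicate 1, -0.19 without PDGF-AA replicate 3, -0.21 without no factor replicate 1, -0.22 without no factor replicate 2, -0.72 without no factor replicate 4 and 0.49 on arrays of the commonest code number alone. Pdgfra, the receptor of the added factor, was the clearest case of arrays that lay with the other group. It read 0.52, 0.08, 0.29 and 2.71 with PDGF-AA and 2.07, 2.63, 1.94 and -0.60 without factor. Its difference was -0.61 ± 0.51 with all arrays (adjusted p = 0.777, limma) and -1.85 ± 0.21 without both arrays numbered 4. The second value is a description, since that pair was picked with its values in view. Ednrb, an endothelin receptor of glial precursors, went the same way: -0.82, 0.03, -0.81 and 1.28 against 1.41, 0.83, 0.42 and -0.57. Of 7 oligodendrocyte and myelin genes 1 was higher at an unadjusted p under 0.05 (3.45% of all units), the small heat shock gene Cryab at 0.50 ± 0.19 without overlap. Qk, an RNA-binding regulator of myelin transcripts, was lower without overlap at -0.28 ± 0.15. Sirt2, a deacetylase abundant in oligodendrocytes, was high in both groups, at 1.51, 2.32, 3.28 and 3.42 with PDGF-AA and 2.79, 3.05, 4.17 and 2.32 without factor.

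The other genes of the PDGF system did not pass. Pdgfrb, the receptor that binds B chains, read 0.24, 0.45, 1.07 and 1.53 with PDGF-AA and 1.496, 1.22, 1.41 and 0.92 without factor, a difference of -0.44 ± 0.22. Pdgfc, a ligand that also acts on the alpha receptor, had a difference of -0.15 ± 0.23. Pdgfa, which encodes the A chain itself, read 0.83, 1.55, 2.08 and 2.43 against 1.15, 2.68, 2.48 and 0.96. All of its arrays lay above the FGF-2 reference, and its difference of -0.10 ± 0.21 turned positive under 5 of 14 alternatives, including scaling and quantile normalization. None of 10 receptor tyrosine kinase signal transducers had an unadjusted p under 0.05, with a median of -0.06, and the genes of smallest p were Pik3ca, a catalytic subunit of phosphoinositide 3-kinase, at -0.23 ± 0.13 and the adaptor gene Gab1 at -0.28 ± 0.18.

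ERK feedback and target genes are induced by receptor tyrosine kinase signalling, and the feedback genes among them restrain it. Of 4 measured, 1 was higher at an unadjusted p under 0.05 (3.45% of all units). Their median difference was 0.30, and 0.13 without PDGF-AA replicate 1. Etv5, an ETS transcription factor, read -0.24, -1.42, -1.35 and -1.60 with PDGF-AA and -1.89, -1.75, -1.72 and -1.32 without factor, a difference of 0.52 ± 0.21 (adjusted p = 0.521). Spry4, a Sprouty inhibitor, read 0.55, -1.92, -1.24 and -2.19 against -2.82, -2.30, -2.21 and -1.25, a difference of 0.94 ± 0.48. In both genes PDGF-AA replicate 1 was the high array, and the other 3 lay within or close to the no factor range. Spred2, another inhibitor of the pathway, had a difference of 0.09 ± 0.15. Of 14 immediate early genes, 2 were lower at an unadjusted p under 0.05 (5.31% of all units), Btg2 and Jun, and the median was -0.07. Jun, a subunit of the AP-1 factor, read -0.30, -0.08, 0.67 and 1.18 against 0.98, 1.69, 1.59 and 0.81, a difference of -0.90 ± 0.18 (adjusted p = 0.256). Egr1, another early target of ERK, had a difference of 0.30 ± 0.33.

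Insulin-like growth factor genes went both ways among 5 measured, with 2 lower and 1 higher at an unadjusted p under 0.05 (5.31% and 3.45% of all units). Igfbp5, which binds these factors outside the cell, read -0.08, 2.08, 2.08 and 1.95 with PDGF-AA and 3.35, 3.09, 2.71 and 1.65 without factor, a difference of -1.20 ± 0.41 in which PDGF-AA replicate 1 stood apart. Its relative Igfbp4 had a difference of 0.60 ± 0.21 and the ligand gene Igf2 one of -0.80 ± 0.29. Of 6 BMP and TGF-beta genes all had a lower mean and 2 were lower at an unadjusted p under 0.05 (5.31% of all units), the ligand gene Tgfb2 at -0.74 ± 0.27 and the signal transducer gene Smad5 at -0.32 ± 0.14. The BMP target Id1 had a difference of -0.20 ± 0.25. The median of these 6 was -0.28, and 0.13 on arrays of the commonest code number alone. With a code number term or without PDGF-AA replicate 2 none of the 6 was lower at that p in limma, against 2 with all arrays. Among 8 other growth factor receptors Fgfr2, an FGF receptor of glia, was lower without overlap, at 0.15, 0.54, 0.27 and 0.43 against 0.70, 0.69, 1.00 and 0.78 (difference -0.44 ± 0.18). These values average 2 spots that went opposite ways, 1 higher and 1 lower with PDGF-AA. Tgfbr2, a TGF-beta receptor, had a difference of -0.40 ± 0.19. Of 3 Notch pathway genes, the Notch inhibitor gene Numb had the smallest p, with a difference of -0.37 ± 0.16.

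Metabolic and housekeeping groups had median differences smaller in size than the astrocyte, lysosome and cell cycle lists, which was not tested. Of 22 sterol and fatty acid synthesis genes, 4 were higher and 1 lower at an unadjusted p under 0.05 (3.45% and 5.31% of all units), with a median of 0.07. With a code number term 1 was higher. Mvd, an enzyme of the mevalonate pathway, had a difference of 1.08 ± 0.33 that included no factor replicate 4 at -3.17, and Hmgcs1, which makes the precursor HMG-CoA, one of 0.70 ± 0.23. Elovl5, an elongase of polyunsaturated fatty acids, lay at -0.39 ± 0.14. Of 22 glycolysis and hypoxia genes 3 were higher and 2 lower at an unadjusted p under 0.05 (3.45% and 5.31% of all units), with a median of -0.06. Slc2a1, the glucose transporter GLUT1, was lower without overlap at -0.37 ± 0.13, while Pgk1 and Pgam1 lay higher. Of 20 genes of endoplasmic reticulum stress and ATF4, 16 had a higher mean and 2 were higher at an unadjusted p under 0.05 (3.45% of all units), the mitochondrial folate enzymes Shmt2 at 0.45 ± 0.13, without overlap, and Mthfd2 at 0.67 ± 0.27. Psat1, an enzyme of serine synthesis, was also free of overlap at 0.38 ± 0.20. The list median was 0.16, and -0.01 on arrays of the commonest code number alone.

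Cytosolic ribosomal protein genes had a small difference that ran one way. Of 27 measured, 26 had a higher mean with PDGF-AA, 7 were higher at an unadjusted p under 0.05 (3.45% of all units) and 3 did not overlap, with PDGF-AA above (1.31% of all units). The median difference was 0.15, while the standard error of a single typical unit was 0.17, which is not the error of a list median. It lay between 0.11 and 0.21 in the 22 settings, several of which could not move it. Rps20, of the small subunit, read -0.11, -0.04, -0.16 and -0.24 with PDGF-AA and -0.43, -0.44, -0.67 and -0.53 without factor, a difference of 0.38 ± 0.12. The paralog Rps27l had a difference of 0.48 ± 0.16 and Rpl4, averaged over 8 spots of which 1 had the other sign, one of 0.27 ± 0.11. These genes have many pseudogenes and copies, so their spots may read related sequences. Oxidative phosphorylation genes had a median of 0.08 over 52 genes. Among them 1, Sdhd of succinate dehydrogenase at 0.36 ± 0.16, was higher at an unadjusted p under 0.05 (3.45% of all units). Of 22 glutathione and oxidant defence genes 1 was higher and 2 lower at that p (3.45% and 5.31% of all units). The higher one was the mitochondrial peroxidase gene Prdx3 at 0.47 ± 0.14. The lower ones were the glutathione transferase gene Gstm7 at -0.56 ± 0.21, whose family members are similar in sequence, and the heme oxygenase gene Hmox1 at -0.69 ± 0.31.

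Markers of other cell types were measured beside the neural lists. Of 26 extracellular matrix and mesenchymal genes, 1 was higher and 2 lower at an unadjusted p under 0.05 (3.45% and 5.31% of all units). The median difference was -0.05, with list medians from -0.01 to 0.41 with PDGF-AA and from 0.08 to 0.38 without factor. Sparc, a matrix protein also made by astrocytes and endothelium, read -0.21, 1.31, 1.49 and 2.38 against 2.99, 2.52, 2.42 and 1.15 (difference -1.03 ± 0.44), Timp2, a metalloproteinase inhibitor, was lower without overlap at -0.51 ± 0.14, and Mgp, the matrix Gla protein, lay at 0.48 ± 0.21. Tnc, the matrix protein tenascin C, had a difference of -0.24 ± 0.28. Of 7 microglia and macrophage genes 1, the lectin gene Lgals3 at -0.70 ± 0.26, was lower at that p (5.31% of all units). The list medians ran from -0.17 to -0.02 with PDGF-AA and from 0.00 to 0.23 without factor, so they did not overlap. The median difference of these 7 genes was -0.24, and 0.01 on arrays of the commonest code number alone. None of 4 endothelial, 8 interferon response or 6 p53 and cell death genes had an unadjusted p under 0.05, and their medians were -0.06, 0.00 and 0.03. The part of such cells in the other results was not tested.

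**Figure D4:**
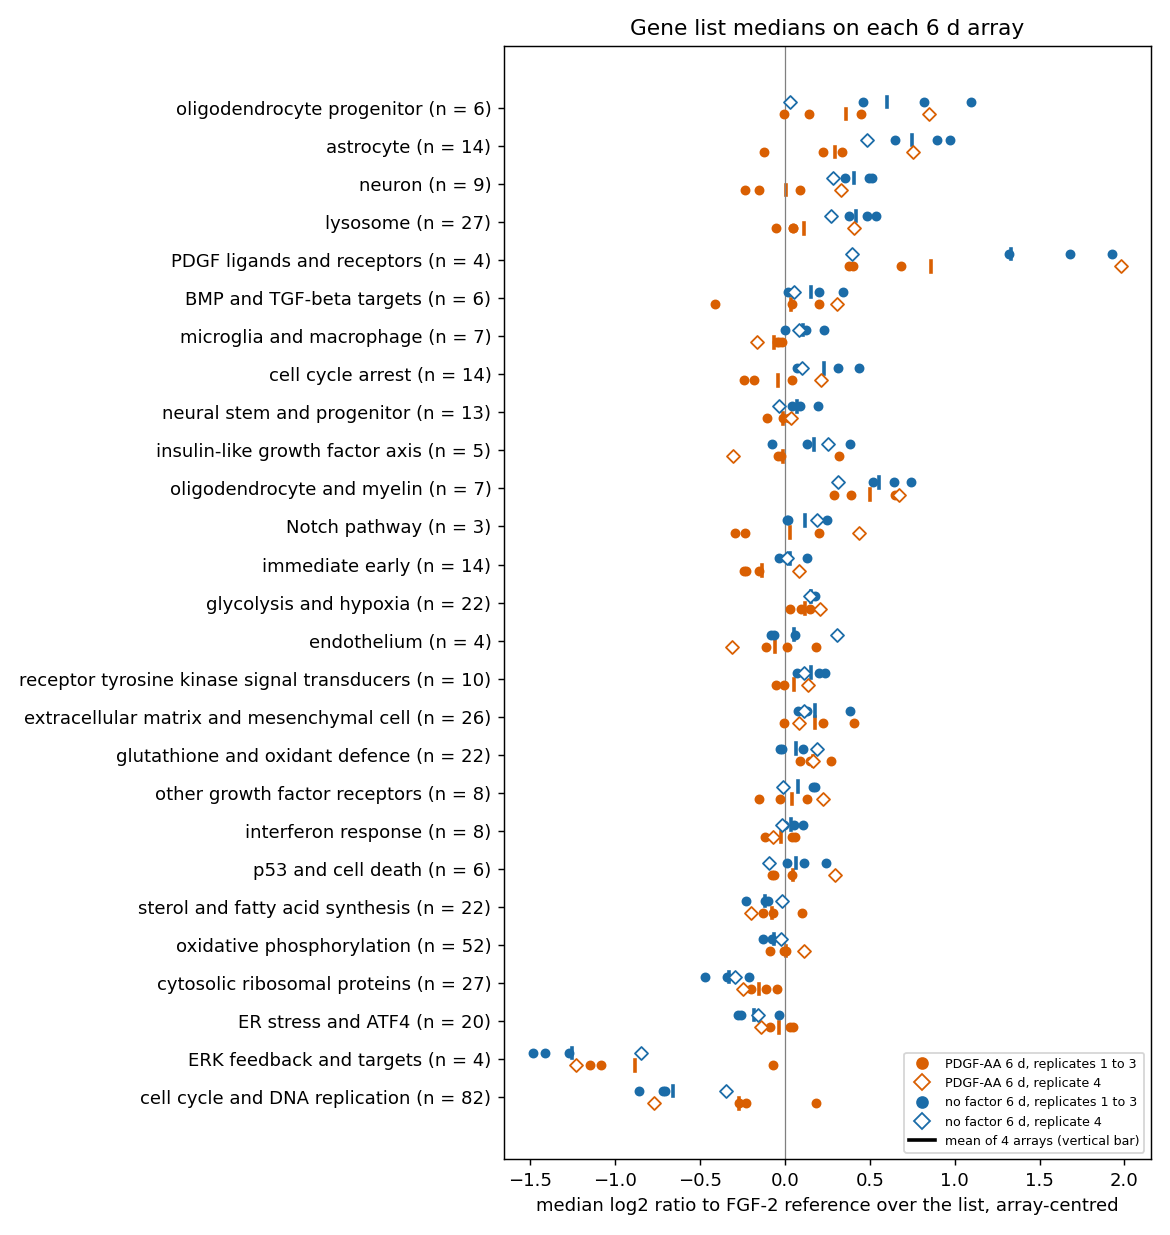
Median log2 ratio to the FGF-2 reference over each of 27 gene lists on each 6 d array, ordered by the median difference between PDGF-AA (orange) and no factor (blue), with the number of genes in brackets. Circles are replicates 1 to 3, diamonds replicate 4 and bars means of 4 arrays; for cell cycle genes the PDGF-AA diamond, at -0.77, lies among the no factor arrays, and for astrocyte genes the PDGF-AA diamond, at 0.76, does so too.

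Leaving out PDGF-AA replicate 4 alone gave 58 units past the threshold, 11 higher and 47 lower, and leaving out no factor replicate 4 alone gave 1. Without both, 229 units passed (1.82%), 56 of them higher (0.446%) and 173 lower (1.38%), among them 171 genes with 1 symbol. Of the 20 genes with the smallest p on both sides with all arrays, 14 passed then. Those 20 were picked from values that include the arrays left in, so their number gives no separate support. These counts are a description, since the pair numbered 4 was picked with its values in view. Leaving out 1 array of each group in the other 15 ways gave from 0 to 6 units. Entpd2 passed in 15 of the 16 ways. In the remaining way, without PDGF-AA replicate 1 and no factor replicate 2, no unit passed with limma (0 units, 823 at an unadjusted p under 0.05).

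**Figure D5:**
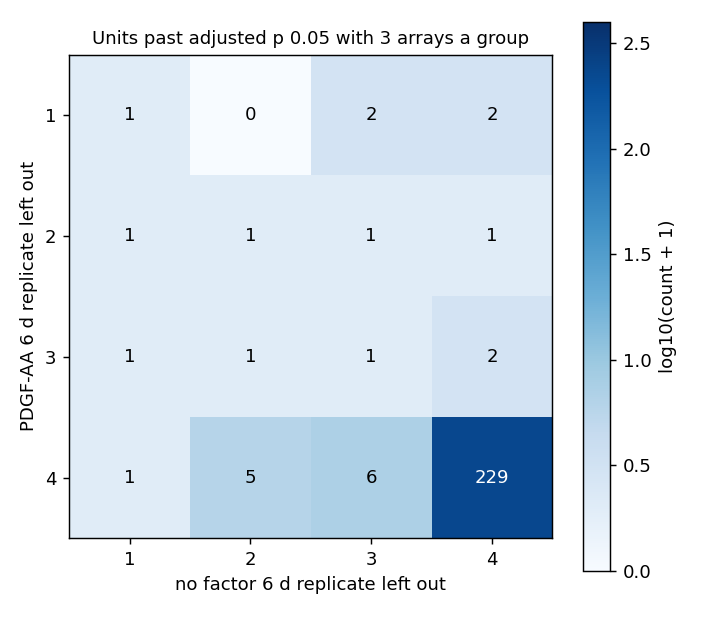
Number of units past an adjusted p of 0.05 when 1 PDGF-AA array (rows) and 1 no factor array (columns) at 6 d are left out, leaving 3 arrays a group, with shading on a log10 scale of the count plus 1. The pair of replicates 4 gives 229, and the other 15 pairs give from 0 to 6.

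The 6 d difference was set against the difference at 12 h with an interaction term. Both times share the pair of treatments and the balance of dyes, but no arrays. They differ in the code number: every array at 12 h had the commonest one, while most PDGF-AA arrays and a no factor array at 6 d had others. The main fit had no code number term, so in it a difference between the times cannot be told apart from one between code numbers. With that term added, 0 units passed (lowest adjusted p 0.132, limma). In the main fit no unit passed either (0 of 12559, with 497 units, 3.96%, at an unadjusted p under 0.05 in limma). Entpd2 had the smallest p: PDGF-AA minus no factor was -0.01 ± 0.17 at 12 h, where the means were 0.33 and 0.34, and -1.45 at 6 d, and the interaction was -1.44 ± 0.24 (adjusted p = 0.181, limma with Benjamini-Hochberg). The level with PDGF-AA was thus near 0.33 at 12 h and between 0.45 and 1.10 at 6 d, while that without factor lay between 1.71 and 2.35 at 6 d. The next were Myl4, an atrial myosin light chain, with a difference of -0.99 ± 0.20 at 12 h and 0.13 ± 0.20 at 6 d, and Lgals7, a galectin of epithelia, with -0.35 ± 0.16 and 0.49 ± 0.16. Psmg3, a proteasome assembly chaperone, had -0.23 ± 0.12 and 0.40 ± 0.12, and Pnp, a purine nucleoside phosphorylase, -0.38 ± 0.18 and 0.55 ± 0.18. These 4 had an interaction adjusted p of 0.995. Cell cycle genes had a median difference of 0.47 at 12 h and 0.40 at 6 d, astrocyte genes -0.29 and -0.43, lysosome genes -0.15 and -0.31, and neuronal genes 0.08 and -0.41. The list medians of both times were not tested against each other.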

How the data were processed

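RNA was read on 16 mouse cDNA chips in 2 colours, from 40 micrograms of total RNA for a label, and scanned images were quantified with QuantArray, per the labels' protocols. The authors deposited 1 log ratio per spot and array, taken here as log2; the base, direction, background correction and normalisation are not given in the sources used here. Swapped arrays run the same way as the others in the deposited values. All 16 columns were used (0 left out). Of 15151 features, 8833 had 1 gene symbol in the platform annotation, 606 several and 5712 none. Features of 1 symbol were averaged, the others kept unnamed, and a unit needed values on 3 arrays of each group. Each array was shifted to a median of 0. One limma model (limma 3.58.1, R 4.3.3) then took all arrays, with group coefficients, a dye term and empirical Bayes, two-sided, with Benjamini-Hochberg adjustment over 12559 units at 0.05. Precision is limited by the number of arrays, since spot intensities were not used. The fit was also run on simulated data with independent errors for each unit and array. No simulated array was made to lie with the other group, so that run cannot speak to such arrays here.

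Named genes were those past the threshold, otherwise the 10 of smallest p in each direction, all PDGF ligands and receptors, up to 3 of smallest p in each other list, 23 genes that earlier results named, and the 5 of smallest p for the interaction; not all of these are given in the text. Mcm5, Racgap1, Glul, Gaa, Psap and Ctsd were added after their values were seen. The members and lists were chosen with earlier results of these data known. Alternatives covered centring, scaling, quantile normalization, the dye term, the arrays in the fit, the code number in the titles and 1 dye at a time. They also covered averaging, missing values, the variance prior, array weights, each array left out and both arrays numbered 4 left out. The pair numbered 4 was picked with its values in view. The arrays of the commonest code number alone and pairs of 1 array a group were added after seeing the data. Promoters are from RefSeq (GRCr8), matched by symbol for 5013 of 6241 genes.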

Additional observations from a re-analysis of the deposited data

Results flagged for a closer look

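In each group of 4 arrays, a gene or list median named in the text was singled out when the gap between the highest or lowest array and its nearest neighbour took up more of the range than the 95% critical value of Dixon's test allows. This held for 15 of 238 groups, or 6.3%, where chance gives about 1 in 20, so the number itself is near what chance gives. Among PDGF-AA arrays, replicate 4 was far above the others for Pdgfra at 2.71, Btg2 at 0.63 and Scarb2 at 0.56. Replicate 1 was far above the others for Spred2 at -0.42 and for the median of the ERK feedback genes at -0.069, and far below them for Igfbp5 at -0.083. Replicate 2 was far below for Shmt2 at -0.32, and replicate 3 far above for Tnpo3 at 0.18. Among no factor arrays, replicate 4 was far below the others for Entpd2 at 1.71 and Tnc at 0.66, and far above them for Mthfd2 at -0.18 and Hmox1 at 1.41. Replicate 3 was far above for Glul at 1.71, replicate 1 far below for Cst3 at -2.63, and replicate 1 far above for the median of the glycolysis genes at 0.18. The arrays numbered 4 account for 7 of the 15 values, and what sets them apart was not tested.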

How the results depend on the processing

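With all arrays 1 unit passed, Entpd2. The count was also 1 unit without centring, with a code number term, with features not averaged, with robust empirical Bayes and with array weights. Complete units or no minimum of arrays gave the same fit as the main one. The count was 2 with arrays scaled to a common spread and 0 with quantile normalization (lowest adjusted p 0.168), without the dye term (0.341), on the 6 d arrays alone (0.0697), on Cy5 arrays alone (0.258) and on Cy3 arrays alone (0.311), all from limma, with 561 to 1217 units at an unadjusted p under 0.05. It was 229 without both arrays numbered 4. If the deposited ratios run the other way, the 1 unit is higher with PDGF-AA. Leaving out 1 array, or 1 array of each group, gave from 0 to 229 units. The interaction had 0 units in every setting (limma; 168 to 1057 at an unadjusted p under 0.05), and has no fit on the 6 d arrays alone. Of 1288 differences of 92 genes over 14 settings, 36 in 25 genes turned sign, none of them a called gene, and the cause was not tested. Leaving out the dye term or using only the 6 d arrays cannot move a difference, since each group holds both dye orders equally. Complete units, no minimum of arrays and robust empirical Bayes left the differences as they were too, so those settings could turn no sign. On arrays of the commonest code number alone, where PDGF-AA at 6 d has 1 array assumed to vary like the others, 19 turned: Pdgfrb 0.26, Pdgfra 1.08, Pdgfc 0.65, Pdgfa 0.086, Spry4 -0.34, Btg2 0.52, Tgfb2 0.051, Id1 0.21, Mcm6 -0.41, Mcm5 -0.18, Cdkn1c 1.37, Sat1 0.34, Pink1 0.93, Celsr2 0.15, Gja1 0.036, Aldoc 1.17, Ednrb 1.18, Sparc 0.36 and Tnc 0.031. Scaling turned Pdgfa to 0.083, Spred2 to -0.013, Nes to -0.031 and Cst3 to -0.14. Quantile normalization turned Pdgfa to 0.10 and Nes to -0.11. The code number term turned Pdgfa to 0.063, Pdgfc to 0.0056 and Id1 to 0.0017. Cy5 arrays alone turned Pdgfa to 0.14, Fgfr1 to -0.0496, Nes to -0.077 and Myl4 to -0.0498, and Cy3 arrays alone turned Gab1 to 0.032 and Aldoc to 0.17. Without both arrays numbered 4, Nes was -0.032 and Cst3 -0.16. Leaving out single arrays moved Pdgfc from -0.40 to 0.047, Pdgfa from -0.23 to 0.051, Spred2 from -0.0066 to 0.18, Egr1 from -0.0051 to 0.54, Id1 from -0.44 to 0.039, Nes from -0.042 to 0.16, Aldoc from -0.60 to 0.046, Cst3 from -0.20 to 0.46 and Tnc from -0.53 to 0.043. No paired analysis was possible because the labels give the arrays no shared replicate numbers. The limits are 4 arrays a group, unknown signal over background, RNA batches that cannot be told apart by array, and code numbers that differ between the groups on 4 of the 8 arrays.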
